A study of Rattus norvegicus and Mus musculus with 9 samples.

Results

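The genes described here encode the enzymes and transporters of glycolysis, of lactate production and export, of pyruvate entry into mitochondria and of the pentose phosphate pathway. Their RNA was measured on microarrays in embryonic stem (ES) cells of the rat and of the mouse and in embryonic fibroblasts of the rat. They are a list of 46 gene symbols of these pathways, and the rows of each table were matched to them by symbol. The rat table held 45 of them among 14506 genes, with Pgd not analysed there. The mouse table held 42 among 19938 genes, with Gpi, Pfkfb1, Gapdh and Eno1 not analysed there, and 41 were in both. Each group had 3 arrays. The rat ES cells (strain DA) were grown in a medium labelled 3I. The rat embryonic fibroblasts (strain DA) were grown in GMEM with 10% FBS, and the mouse ES cells (strain C57/BL6) in GMEM with 10% FBS and LIF. Feeder cells were taken out of the mouse cultures before RNA extraction, per the design text, which as read here does not say so of the rat ES cultures. No sex, passage, oxygen level or glucose concentration is given in the sources used here.

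Glycolysis splits glucose into pyruvate and yields ATP without oxygen. Hexokinase traps glucose in the cell, phosphofructokinase commits it to the pathway, and pyruvate kinase makes the pyruvate, which lactate dehydrogenase turns into lactate for export or the pyruvate dehydrogenase complex turns into acetyl-CoA. The pentose phosphate pathway branches off at glucose 6-phosphate and supplies NADPH and ribose for nucleotides. Most steps have several isoenzymes encoded by separate genes with their own tissue pattern, and ES cells are known for a high rate of glycolysis.

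All 6 ES cell markers (Pou5f1, Nanog, Sox2, Esrrb, Tfcp2l1, Dppa3) were above the array median on every rat ES array and on every mouse array. On the rat fibroblast arrays their mean signal was 4.93 to 5.11 (log2), and 1 or 2 of them were above the array median. The 6 fibroblast markers had a mean signal of 11.24 to 11.33 on the fibroblast arrays, where all but Lum were above the array median, and of 6.86, 7.09 and 7.37 on rat ES arrays 1, 2 and 3. Among them Col1a1, a fibrillar collagen gene, was at 9.71, 10.17 and 10.56 on those rat ES arrays. Fibroblast marker signal thus differed among the rat ES arrays and was highest on array 3, and its part in the values below was not tested. On each mouse array 5 of the 6 fibroblast markers, all but Lum, were above the array median, with a mean signal of 5.98 to 6.05. The part of that signal in the mouse ranks was not tested either. Rat array medians lay between 5.71 and 5.74. No detection call was used, and a fold that rests on a signal under the array median is given as uncertain in size. Whether arrays of the same group stand for separate cultures is not stated, so p-values here reflect the array-to-array spread alone, and that may be technical. The medium differed along with the cell type, so no difference between the rat groups can be told apart from the medium.

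In rat ES cells, 20 of the 45 measured genes were called higher than in fibroblasts and 3 were called lower. A gene was called when its difference was at least 2-fold with a Benjamini-Hochberg adjusted p under 0.05 in limma over all 14506 genes. Over all genes tested, 10.6% were called higher and 10.1% lower, 20.7% in either direction. The median log2 difference of the 45 genes was 0.72, against -0.001 over all genes, and 38 of the 45 had a difference above 0. The signals of the 2 rat groups did not overlap in 38 of the 45 genes, where this held for 61.5% of all genes. Of the 22 genes that were not called, 14 had an adjusted p under 0.05 at less than 2-fold. Over all genes, 5176 of the 11510 not called did so. By role, calls higher were made for 1 of 2 glucose transporter genes, 1 of 3 hexokinase genes, 7 of 13 genes of the upper steps down to triose phosphate, 4 of 10 genes of the lower steps down to pyruvate, 4 of 5 lactate genes, 3 of 6 genes of pyruvate entry into mitochondria and none of 6 pentose phosphate genes. The 3 called lower were Eno2, Eno3 and Pdk2, each an isoenzyme whose sister gene was called higher. Eno2 alone was called lower without rat ES array 1 and after median centring, where Eno3 and Pdk2 fell short of 2-fold.

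**Figure D1:**
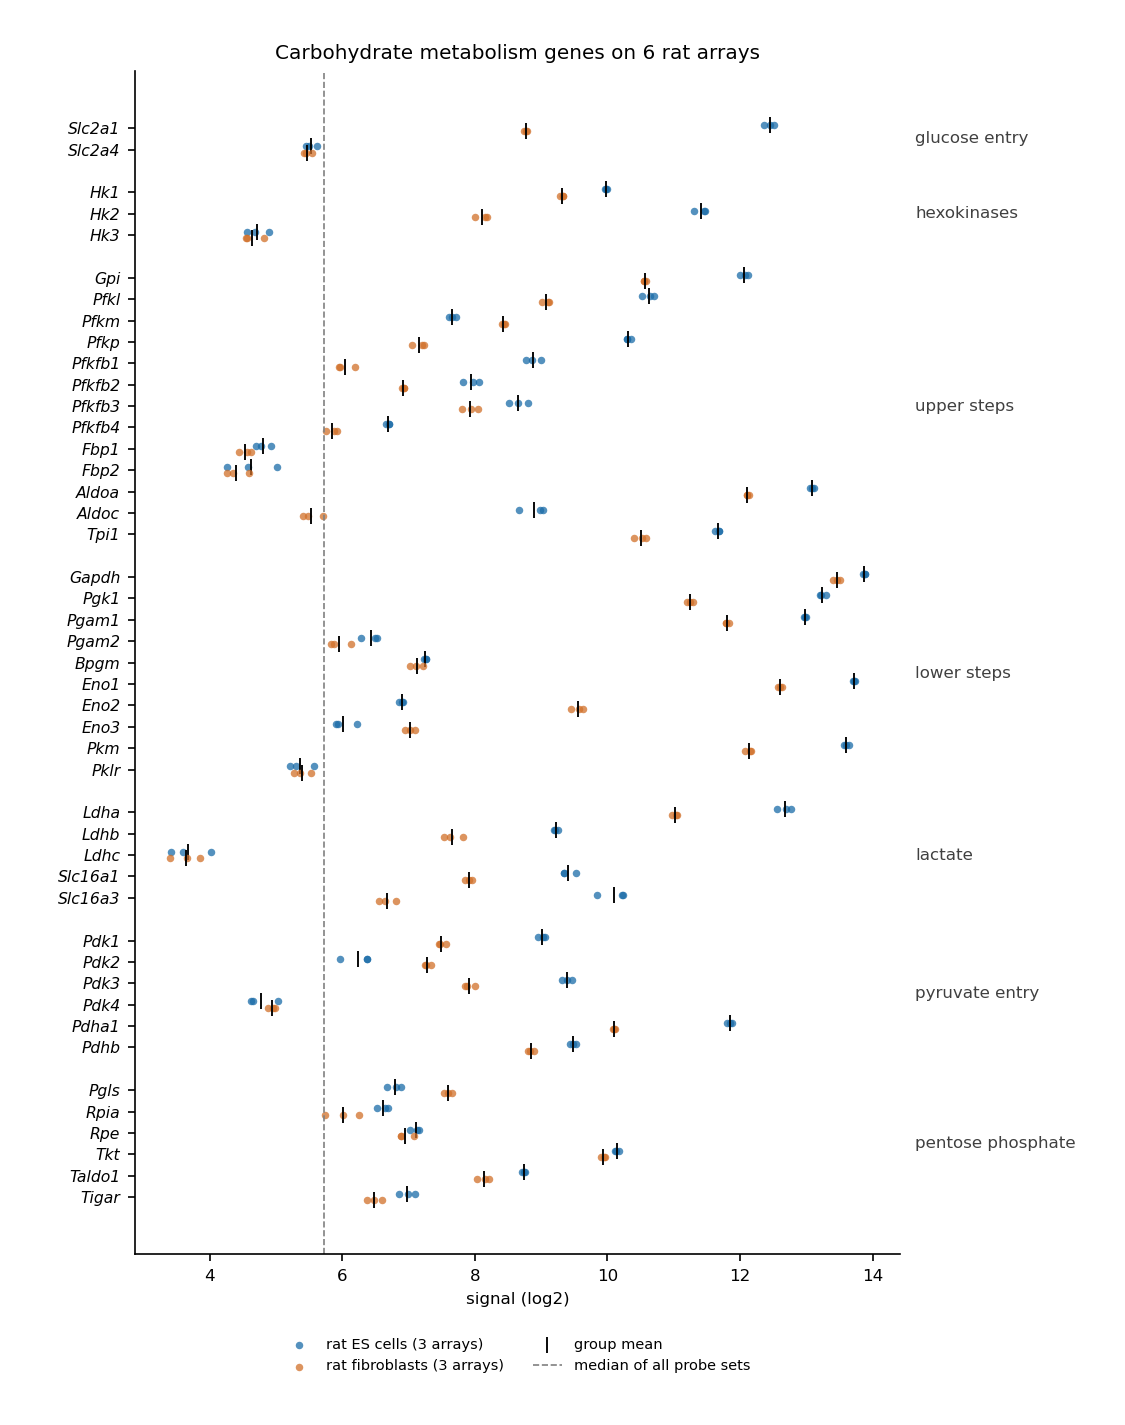
Signal (log2, horizontal axis) of the 45 genes on each of the 6 rat arrays, grouped by role. Points are arrays, black ticks are means of 3 arrays, and the dashed line is the median of all probe sets. Slc2a1, Hk2, Pfkp, Pfkfb1, Aldoc and Slc16a3 show the widest gaps with rat ES cells higher, and Eno2 the widest with fibroblasts higher.

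Promoter stretches of 8 called genes are shown, all those with a RefSeq window that holds ACGTG within the 250 bases before the gene's start. ACGTG is a form of the core of the element that hypoxia-inducible factors bind, and other forms were not searched. Of these genes 6 were called higher (Slc2a1, Aldoc, Ldha, Slc16a1, Pdk3 and Pgam1) and 2 lower (Eno2 and Pdk2). Sequences are from RefSeq on build GRCr8, 5′ to 3′ on the gene's strand, at chr5:138002422-138002521 (Slc2a1, plus), chr10:63715444-63715543 (Aldoc, plus), chr1:106507992-106508091 (Ldha, plus), chr2:194812444-194812543 (Slc16a1, plus), chrX:62547372-62547471 (Pdk3, minus), chr1:250673011-250673110 (Pgam1, plus), chr4:159267260-159267359 (Eno2, minus) and chr10:80483956-80484055 (Pdk2, minus). Capitals mark ACGTG on either strand, and CACGTG, the E-box, counts as a match on each strand.
Slc2a1: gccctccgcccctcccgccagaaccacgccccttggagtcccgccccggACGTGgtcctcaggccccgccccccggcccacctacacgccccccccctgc
Aldoc: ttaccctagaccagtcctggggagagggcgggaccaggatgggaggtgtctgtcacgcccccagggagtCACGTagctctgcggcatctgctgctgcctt
Ldha: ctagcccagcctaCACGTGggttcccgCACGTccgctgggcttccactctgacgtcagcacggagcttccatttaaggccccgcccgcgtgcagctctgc
Slc16a1: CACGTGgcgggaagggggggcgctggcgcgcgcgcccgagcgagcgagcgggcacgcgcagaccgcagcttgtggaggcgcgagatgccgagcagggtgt
Pdk3: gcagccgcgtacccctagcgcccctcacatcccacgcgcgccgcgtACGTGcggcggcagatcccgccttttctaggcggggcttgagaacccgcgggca
Pgam1: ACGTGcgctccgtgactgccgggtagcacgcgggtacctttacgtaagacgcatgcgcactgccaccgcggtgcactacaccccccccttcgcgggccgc
Eno2: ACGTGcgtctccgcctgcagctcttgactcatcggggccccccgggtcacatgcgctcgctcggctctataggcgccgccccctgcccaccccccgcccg
Pdk2: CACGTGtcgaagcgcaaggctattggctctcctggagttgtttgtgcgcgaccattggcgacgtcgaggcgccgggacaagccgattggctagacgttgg

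RefSeq promoter windows were matched for 42 of the 46 genes, 46 windows in all since some genes have several starts. No window was matched for Slc2a4, Fbp2, Pgls or Pgk1, and Pgk1 is a gene called higher. ACGTG on either strand was in 15 of these 46 windows (32.6%) and in 16.6% of all 33469 windows. The letters were in 30.0% of the windows of genes called higher, in 31.8% of those of genes not called and in 2 of the 3 windows of genes called lower. CACGTG was in 5 of the 46 windows (10.9%) and in 5.59% of all windows. The windows of the 46 differed from the rest in base composition too, with a median GC content of 59.6% against 51.2% and a median of 14 CpG dinucleotides against 5, and the part of this in the motif shares was not tested. The promoters of Hk2, Pfkp and Slc16a3, among the genes with the largest increases, held no ACGTG in these 250 bases. Other forms of the core were not searched there.

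Glucose entry. Slc2a1 encodes GLUT1, the widespread basal glucose transporter. Its signal was 12.37, 12.45 and 12.52 (log2) on the rat ES arrays and 8.78, 8.75 and 8.79 on the fibroblast arrays. The groups lay far apart, with a difference of 3.67 (SE 0.067, 12.8-fold, limma adjusted p = 3.72e-09). Slc2a4, which encodes the insulin-responsive transporter GLUT4 of muscle and fat, was below the array median on all 6 arrays, at 5.46 to 5.62 in rat ES cells and 5.43 to 5.54 in fibroblasts. Its groups overlapped, and the difference of 0.05 had a 95% interval of -0.12 to 0.22.

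Hexokinases. Hk2 encodes hexokinase 2, the inducible form of muscle and of many growing cells, and Hk1 the form found in most tissues. Hk2 was at 11.30, 11.47 and 11.46 in rat ES cells and at 8.16, 8.19 and 8.0 in fibroblasts. Every rat ES array was above every fibroblast array, with a difference of 3.29 (SE 0.081, 9.81-fold, limma adjusted p = 1.15e-08). Hk1 was at 9.97 to 10.00 against 9.28 to 9.33, a difference of 0.67 that had a limma adjusted p of 1.83e-05 but lay under 2-fold. Hk3, a form of blood cells, was below the array median on all 6 arrays.

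Upper steps. Phosphofructokinase is built from the subunits made by Pfkl (liver type), Pfkp (platelet type) and Pfkm (muscle type), and these genes differed from each other in direction. Pfkp was at 10.29, 10.36 and 10.30 in rat ES cells and at 7.05, 7.24 and 7.20 in fibroblasts, a difference of 3.16 (SE 0.074, 8.94-fold, limma adjusted p = 9.01e-09). Pfkl was at 10.53, 10.71 and 10.64 against 9.12, 9.10 and 9.01, a difference of 1.55 (SE 0.075). Pfkm went the other way, at 7.72, 7.61 and 7.65 in rat ES cells and 8.45, 8.44 and 8.41 in fibroblasts. Its difference of -0.77 (limma adjusted p = 1.05e-05) lay under 2-fold, so Pfkm was not called.

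The Pfkfb genes encode the bifunctional enzymes that set the level of fructose 2,6-bisphosphate, the activator of phosphofructokinase. Pfkfb1, the form known from liver and muscle, was at 8.77, 9.0 and 8.87 in rat ES cells and at 5.95, 5.97 and 6.19 in fibroblasts. The difference of 2.85 (SE 0.093, limma adjusted p = 4.75e-08) was the largest of the 4 family members. Pfkfb2, the heart form, was at 7.82, 7.97 and 8.06 against 6.93, 6.93 and 6.90. Its difference of 1.03 lay near the threshold, and was at 0.98 without rat ES array 3 and 0.99 after quantile normalization. Pfkfb3 differed by 0.72 and Pfkfb4 by 0.84, both under 2-fold, with no overlap between the groups. Fbp1 and Fbp2, which encode the opposing fructose bisphosphatases of gluconeogenesis, were below the array median on all 6 arrays.

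Among the remaining upper steps, Aldoc, the aldolase form of brain, was at 8.67, 9.03 and 8.99 in rat ES cells and at 5.71, 5.41 and 5.49 in fibroblasts. The fibroblast signals were under the array medians, so the 10.3-fold difference (3.36, SE 0.118, limma adjusted p = 6.61e-08) is uncertain in size. Aldoa, the main aldolase of muscle and most other cells, was at 13.05 to 13.12 against 12.10 to 12.13. Its difference of 0.97 was just under 2-fold, and it was called after quantile normalization (1.01) and after median centring (1.04). Gpi, the isomerase that makes fructose 6-phosphate, was at 12.00, 12.12 and 12.08 against 10.56, 10.59 and 10.55, a difference of 1.51. The triose phosphate isomerase gene Tpi1 was at 11.62, 11.69 and 11.68 against 10.58, 10.53 and 10.40, a difference of 1.16, and neither gene overlapped between the groups.

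**Figure D2:**
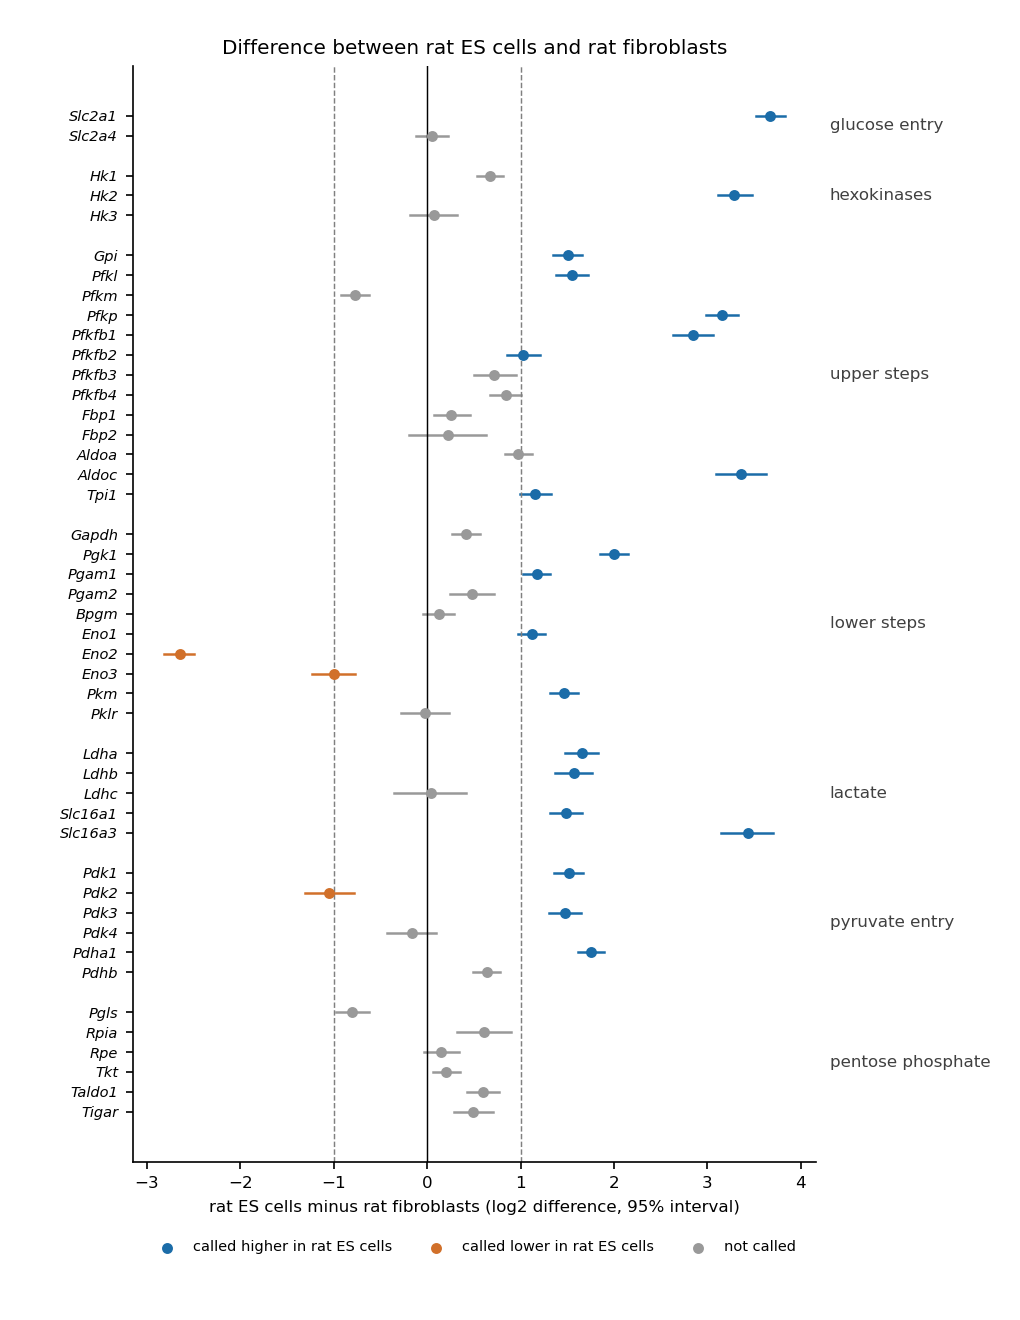
Log2 difference between rat ES cells and rat fibroblasts (points) with its 95% interval from limma (bars) for the 45 genes, grouped by role, with dashed lines at 2-fold. Blue marks the 20 genes called higher in rat ES cells, orange the 3 called lower and grey the 22 not called, and no pentose phosphate gene reaches 2-fold.

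Lower steps. Pgk1 and Pkm encode the kinases that make ATP. Pgk1 was at 13.21, 13.30 and 13.22 in rat ES cells and at 11.24, 11.20 and 11.29 in fibroblasts, a 3.99-fold difference (2.00, SE 0.066, limma adjusted p = 4.83e-08). Pkm was at 13.60, 13.64 and 13.57 against 12.17, 12.07 and 12.15, a difference of 1.47 (SE 0.065), and its 3 probe sets gave 1.41 to 1.48. These values do not tell the M1 and M2 splice forms of Pkm apart. Pklr, the pyruvate kinase gene of liver and red cells, was below the array median on all 6 arrays. Pgam1, the widespread phosphoglycerate mutase, was at 12.96, 13 and 12.98 against 11.79, 11.79 and 11.83 with its brighter probe set, a difference of 1.18, while its other probe set gave 0.40. The muscle mutase gene Pgam2 differed by 0.48 and Bpgm, whose product makes 2,3-bisphosphoglycerate in red cells, by 0.13 (95% interval -0.04 to 0.29).

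Gapdh, often used as a reference gene, was at 13.86 to 13.89 in rat ES cells and 13.40 to 13.51 in fibroblasts. The groups did not overlap, and the difference of 0.42 (95% interval 0.27 to 0.57, limma adjusted p = 5.29e-04) was under 2-fold. All 16 probe sets named Gapdh were higher in rat ES cells, by 0.41 to 0.62. On the rat ES arrays the highest signal of any probe set with a single symbol was 13.86 to 13.89, that of Gapdh itself. The highest on the fibroblast arrays was 13.85 to 13.95, that of Col1a1. Whether signal levels off near these values was not tested. The Gapdh difference is thus uncertain in size and may be understated. Eno1 and Pkm, at means of 13.72 and 13.60 in rat ES cells, lay close to these values, so the same limit may hold for them. Copies of Gapdh, Eno1, Pkm, Pgam1, Ldha and Pdha1 elsewhere in the genome may share their probes, and values of genes with several probe sets are uncertain to that extent.

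The enolases changed in opposite directions. Eno1, the widespread form, was at 13.72, 13.71 and 13.73 in rat ES cells and at 12.61, 12.57 and 12.64 in fibroblasts, a difference of 1.12 (SE 0.062, limma adjusted p = 8.24e-07) that was 0.94 after quantile normalization. Eno2, the form known from neurons, was at 6.86, 6.92 and 6.91 in rat ES cells and at 9.63, 9.45 and 9.58 in fibroblasts. It was 6.29-fold lower in rat ES cells (-2.65, SE 0.072, limma adjusted p = 1.77e-08), and this was the only decrease of at least 4-fold among the 45 genes. The part of the fibroblast marker signal on the rat ES arrays in Eno2, Eno3 and Pdk2, the 3 genes called lower, was not tested. On rat ES arrays 1, 2 and 3, Eno3 (5.90, 5.93 and 6.23) was highest on array 3, as the mean of those markers was. Pdk2 (5.97, 6.37 and 6.38) and Eno2 (6.86, 6.92 and 6.91) were lowest on array 1, as that mean was, and about equal on arrays 2 and 3. Some neural markers were lower in rat ES cells too. The 6 neural markers had a mean of 5.76 to 5.83 in rat ES cells and 6.56 to 6.66 in fibroblasts, with Nes and Map2 above the array median on the fibroblast arrays but on no rat ES array, and Gfap below it on all 6. Tubb3 went the other way, at 8.65 to 8.78 in rat ES cells and 8.03 to 8.22 in fibroblasts. Their part in the Eno2 difference was not tested.

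Eno3, the muscle enolase, was at 5.90, 5.93 and 6.23 in rat ES cells and at 6.95, 7.02 and 7.10 in fibroblasts. The groups did not overlap, but the difference of -1.0 (SE 0.10, limma adjusted p = 3.3e-05) lay on the 2-fold threshold, and its call was lost in 5 of 14 alternative settings, over which it ranged from -1.11 to -0.94. The 6 skeletal muscle markers had a mean of 5.58 to 5.64 in rat ES cells and 5.94 to 6.08 in fibroblasts. Of these Myog and Myh3 were below the array median on all 6 arrays and Acta1 was higher on the fibroblast arrays, and their part in the Eno3 difference was not tested.

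Lactate. Ldha and Ldhb encode the muscle-type and heart-type subunits of lactate dehydrogenase, and both rose in rat ES cells by similar amounts. Ldha was at 12.56, 12.70 and 12.77 in rat ES cells and at 10.97, 11.05 and 11.03 in fibroblasts, a difference of 1.66 (SE 0.076, limma adjusted p = 2.84e-07). Ldhb was at 9.21, 9.26 and 9.19 against 7.82, 7.62 and 7.53, a difference of 1.57 (SE 0.086, limma adjusted p = 7.99e-07). Ldhc, the form of testis, was below the array median on all 6 arrays, at 3.42 to 4.02 in rat ES cells and 3.40 to 3.86 in fibroblasts. Slc16a3 encodes MCT4, a transporter that exports lactate from glycolytic cells. It was at 9.85, 10.23 and 10.22 in rat ES cells and at 6.55, 6.65 and 6.81 in fibroblasts, a 10.8-fold difference (3.43, SE 0.119, limma adjusted p = 6.19e-08). Slc16a1, which encodes the more widespread lactate transporter MCT1, was at 9.35, 9.34 and 9.52 against 7.96, 7.92 and 7.86, a difference of 1.49 (SE 0.076).

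Pyruvate entry into mitochondria. Pdha1 and Pdhb encode the subunits of the first enzyme of the pyruvate dehydrogenase complex, and the Pdk genes encode the kinases that switch it off. Pdha1 was at 11.81, 11.85 and 11.88 in rat ES cells and at 10.08, 10.10 and 10.12 in fibroblasts, a difference of 1.75 (SE 0.062, limma adjusted p = 6.71e-08), and both of its probe sets gave 1.75. Pdhb differed by 0.64, under 2-fold. The kinase genes moved apart. Pdk1, a target of hypoxia-inducible factors, was at 9.03, 9.06 and 8.96 in rat ES cells and 7.56, 7.46 and 7.47 in fibroblasts, and Pdk3 was at 9.32, 9.46 and 9.39 against 7.88, 8.01 and 7.85. Their differences were 1.52 (SE 0.067) and 1.48 (SE 0.075). Pdk2 was at 5.97, 6.37 and 6.38 in rat ES cells and at 7.25, 7.34 and 7.26 in fibroblasts, a difference of -1.05 (SE 0.116, limma adjusted p = 6.38e-05). Rat ES array 1 was the lowest, and without it Pdk2 was at -0.91 and no longer called. Pdk4 was below the array median on all 6 arrays, with a difference of -0.16 (95% interval -0.43 to 0.10).

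Pentose phosphate pathway. None of the 6 measured genes was called by limma, beside 20.7% of all genes, and with 6 genes this is not read as particular to the pathway. In limma 5 of them had an adjusted p under 0.05 at less than 2-fold, and the same 5 an unadjusted p under 0.05. Over all 14506 genes, 8172 had an adjusted p under 0.05. The oxidative branch gene Pgls (6-phosphogluconolactonase) was lower, at 6.68, 6.89 and 6.81 in rat ES cells and 7.65, 7.60 and 7.53 in fibroblasts, a difference of -0.80 (95% interval -0.98 to -0.62). The genes of the non-oxidative branch had differences above 0. Transketolase (Tkt) was at 10.11 to 10.18 against 9.91 to 9.96, a difference of 0.20 (95% interval 0.06 to 0.35). Transaldolase (Taldo1) differed by 0.60 and Rpia by 0.61, and Rpe by 0.15 with an interval that crossed 0 (-0.03 to 0.34). Tigar, which encodes a fructose 2,6-bisphosphatase that favours this pathway, differed by 0.49.

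Isoenzyme genes of the same family were then set against each other within each array, over 16 pairs. The value for a pair is the log2 signal of one gene minus that of the other on the same array. Only its change between the rat groups can be read, since different probes respond differently and their levels cannot be ranked. In 12 of the 16 pairs this value did not overlap between the groups, where single genes did not overlap in 61.5% of all genes, so the count by itself is not read as particular to isoenzymes. An exact two-sided permutation test over the 20 assignments of 6 arrays gave p = 0.1 for each of the 12, the smallest it can give with 3 arrays against 3, or 0.133 adjusted over the 16 pairs, so no pair could pass 0.05. The largest change was between Pfkp and Pfkm. Their within-array difference was 2.57, 2.75 and 2.65 in rat ES cells and -1.40, -1.20 and -1.22 in fibroblasts, a change of 3.93. For Eno1 and Eno2 it was 6.87, 6.79 and 6.82 against 2.98, 3.12 and 3.06, a change of 3.77.

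A switch of calls, with a gene called higher and its sister called lower, was present in 2 of the 16 pairs, Eno1 with Eno2 and Pdk1 with Pdk2. The term rests on the calls alone and does not mean that a gene took the place of its sister. For Pdk1 and Pdk2 the within-array difference was 3.06, 2.69 and 2.57 in rat ES cells and 0.31, 0.12 and 0.21 in fibroblasts, a change of 2.56. The count was 1 after quantile normalization, where Eno1 fell under 2-fold, and 1 after median centring or without rat ES array 1, where Pdk2 did. Eno3 with Eno1 and Pdk3 with Pdk2 also had opposite calls but were not among the 16 pairs. In other pairs both genes had differences above 0 of unequal size. The change was 2.62 for Hk2 over Hk1, 2.39 for Aldoc over Aldoa, 1.94 for Slc16a3 over Slc16a1 and 1.61 for Pfkp over Pfkl. The ratio of Ldha to Ldhb overlapped between the groups, at 3.34, 3.44 and 3.58 in rat ES cells and 3.16, 3.44 and 3.50 in fibroblasts (change 0.09, exact permutation p = 0.6, and -0.07 with the mean of all probe sets). Pdk1 with Pdk3 (change 0.04, exact permutation p = 0.7) and Pfkfb3 with Pfkfb4 (change -0.11, exact permutation p = 0.6) also overlapped.

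**Figure D3:**
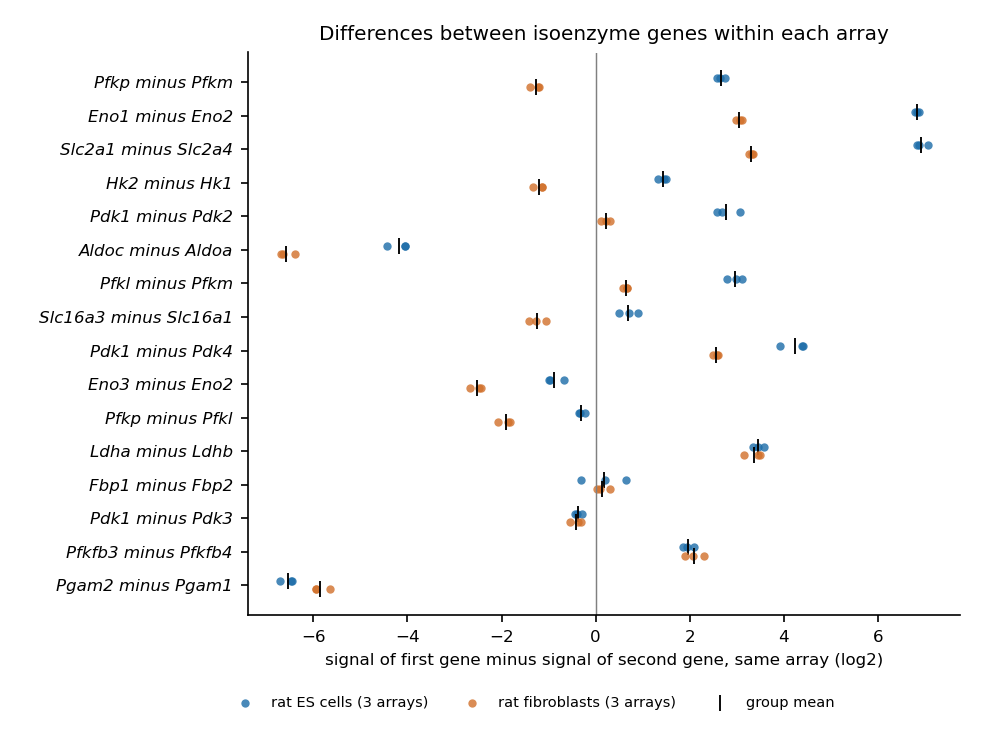
Log2 signal of one isoenzyme gene minus that of another on the same rat array (horizontal axis), for 16 pairs ordered by the change between the groups; points are arrays and black ticks are means of 3 arrays. The groups are apart in 12 pairs, most for Pfkp minus Pfkm, and overlap for Ldha minus Ldhb, Fbp1 minus Fbp2, Pdk1 minus Pdk3 and Pfkfb3 minus Pfkfb4.

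A wider list of 63 genes of carbohydrate metabolism, its regulators and the splicing factors of Pkm was read in the same fit, and 58 were measured, of which 11 were called higher and 6 lower, beside 10.6% and 10.1% of all genes. The share called lower was thus near that of all genes. Among 42 pathway genes, 7 passed as higher in rat ES cells and 5 as lower, with a median log2 difference of 0.06. Those called at least 4-fold higher were the high-affinity glucose transporter gene Slc2a3 (12.19 against 10.01, difference 2.18), Pgm1, which links glycogen to glycolysis (2.01), and the transketolase-like gene Tktl1 (3.01), whose fibroblast mean of 4.14 was below the array medians. Those called at least 4-fold lower were Emb, which encodes embigin, a partner protein of lactate transporters (-2.56), the lactate and pyruvate transporter gene Slc16a7 (-2.22, with a rat ES mean of 4.56 below the array medians), the mitochondrial phosphoenolpyruvate carboxykinase gene Pck2 (-2.28) and the glucose 6-phosphatase gene G6pc3 (-2.27). The 3 lactate transporter genes measured above the array median in a rat group thus differed in direction, with Slc16a1 and Slc16a3 higher and Slc16a7 lower in rat ES cells. Among genes named after their values were seen, basigin (Bsg), the partner protein of MCT1 and MCT4, differed by 0.53. The mitochondrial pyruvate carrier genes Mpc1 and Mpc2 differed by -0.12 and -0.11, with limma adjusted p = 0.567 and 0.18.

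Among 12 regulators, 4 were called higher and 1 lower, beside 10.6% and 10.1% of all genes. Hif1a, the oxygen-regulated subunit of the hypoxia-inducible factor, was at 9.87 against 9.68, a difference of 0.19 (SE 0.062), and its partner Arnt differed by 0.15. Egln3, a prolyl hydroxylase gene that is itself a target of hypoxia-inducible factors, was at 8.10 against 5.14, a difference of 2.96 (SE 0.071, limma adjusted p = 1.01e-08), the fibroblast mean lying below the array medians. Epas1, which encodes HIF-2 alpha, was called at 1.12 and Vhl, which marks both factors for degradation, at 1.14. Egln1 (0.23), Egln2 (-0.02), Hif1an (0.60), Mlxipl (0.12) and Mlx (-0.18) were not called. The Myc genes, which encode activators of many glycolytic genes, were opposed. Mycn was higher by 2.27 (8.44 against 6.17) and Myc was at -3.31 (4.12 against 7.43, the rat ES mean lying below the array medians). Myc was at 3.60, 3.99 and 4.78 on rat ES arrays 1, 2 and 3, an order that the fibroblast marker mean had too. The part of that marker signal in the Myc values was not tested. Of the 4 splicing factors that act on Pkm, none was called by limma, where all 4 had an adjusted p under 0.05 at less than 2-fold. The same held for 5176 of the 11510 genes not called among all genes. Ptbp1 differed by 0.55, Hnrnpa1 by 0.94, Hnrnpa2b1 by 0.27 and Srsf3 by 0.74.

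**Figure D4:**
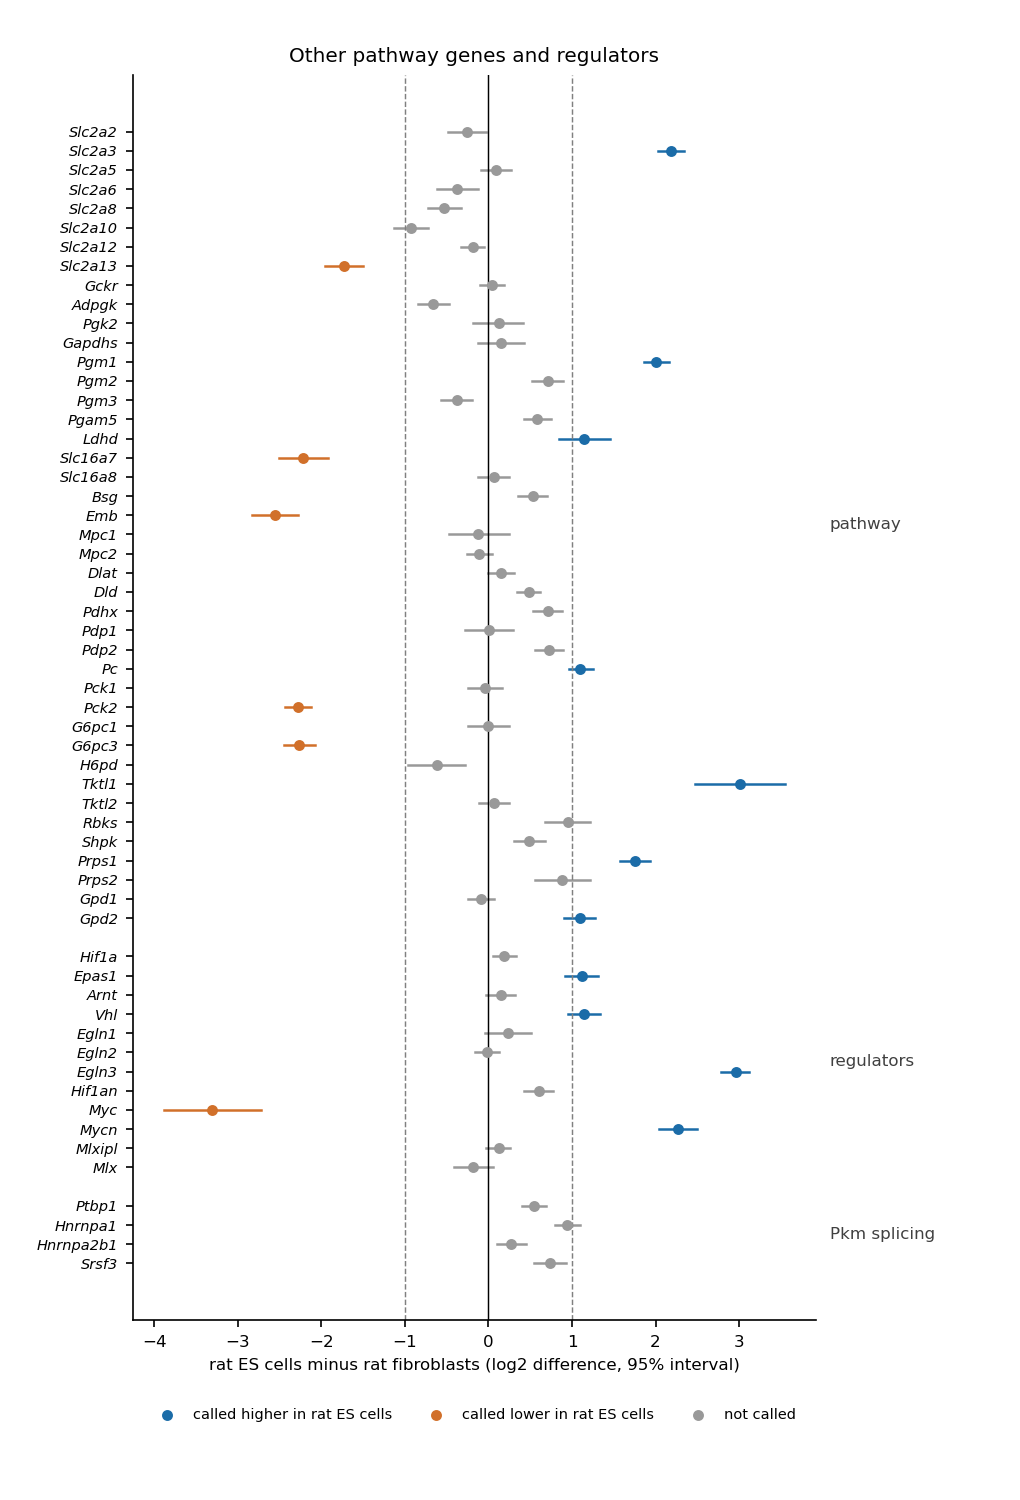
Log2 difference between rat ES cells and rat fibroblasts (points) with its 95% interval from limma (bars) for 58 further genes, in 3 groups, with dashed lines at 2-fold. In the pathway group 7 genes are called higher (blue) and 5 lower (orange), among the regulators Egln3 and Mycn lie highest and Myc lowest, and the Pkm splicing factors are not called (grey).

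Mouse ES cells were measured on another array and deposited in a table of their own, so they were compared only by rank. The percentile of each gene was taken within each array among the 12114 symbols present in both tables. The mouse arrays are not clearly separate measurements. Pairs of them shared 16691 to 20845 identical values of 35557, where pairs of rat replicates shared at most 30 of 29215, and 21 of the 41 genes (51.2%, against 52.6% of all shared symbols) had the same mouse value on all 3 arrays. No test is therefore given, and ranges of percentiles over the mouse arrays are not read as replicate spread. Where a gene had the same mouse value on all 3 arrays, such as Pfkp, Eno2 and Pdk2, its range reflects shifts of other genes alone. The median percentile of the 41 genes was 81.1 in mouse ES cells, 83.2 in rat ES cells and 65.9 in rat fibroblasts. A mean percentile above 90 was reached by 17 genes in mouse ES cells, 17 in rat ES cells and 10 in rat fibroblasts. In mouse ES cells, 28 of the 41 genes lay nearer to their rat ES percentile than to their rat fibroblast percentile, as did 57.1% of all shared symbols.

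Mouse and rat ES percentiles lay within 10 points of each other in 27 of the 41 genes, as in 55.0% of all shared symbols. Several genes called higher in rat ES cells had a mouse percentile above 90, most of them a little under that of rat ES cells. Slc2a1 was at the 99.5th percentile on each mouse array, with means of 99.7 in rat ES cells and 84.4 in fibroblasts. Slc16a3 was at 92.9, 94.0 and 91.9 on the mouse arrays, against means of 95.4 and 49.3. Hk2 was at 96.9 to 97 in mouse ES cells (99.0 and 75 in the rat groups), Pfkp at 93.3 to 94.1 (96.4 and 57.9) and Pdk1 at 91.1 to 91.4 (86.8 and 64.3). Aldoc was lower in mouse ES cells, at 66.7 to 70.4, than its mean of 85.3 in rat ES cells, but above its 31.6 in fibroblasts. The enolase Eno2 ranked at 35.9 to 36.4 on the mouse arrays, further from the fibroblast mean of 92.0 than the rat ES mean of 53.2 was. Pdk2 was at 44.3 to 44.4 in mouse ES cells, beside 43.8 in rat ES cells and 60.3 in fibroblasts. Pgd, measured only in the mouse table, was at a mean of 98.7 among all named mouse genes.

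The Pfkfb genes present in both tables ranked otherwise, and Pfkfb1 was not analysed in the mouse table. Pfkfb3 was at 38.1 to 38.6 on the mouse arrays and at a mean of 82.0 in rat ES cells and 71.9 in fibroblasts, the largest gap between the 2 kinds of ES cell among the 41 genes. Pfkfb2 (45.5 against 70.9 in rat ES cells) and Pfkfb4 (25.8 against 50.2) were also lower in rank in mouse ES cells than in either rat group. Pdk3 was at 69.9 in mouse ES cells, against 90.8 in rat ES cells and 71.5 in fibroblasts. The muscle-type genes Pfkm (92.3 against 65.5) and Eno3 (69.5 against 40.6) and the gene Tigar (81.1 against 54.5) ranked higher in mouse than in rat ES cells. Each of these 7 genes had an identical signal on all 3 mouse arrays. Species, medium and the probes of the 2 arrays cannot be told apart in these ranks.

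**Figure D5:**
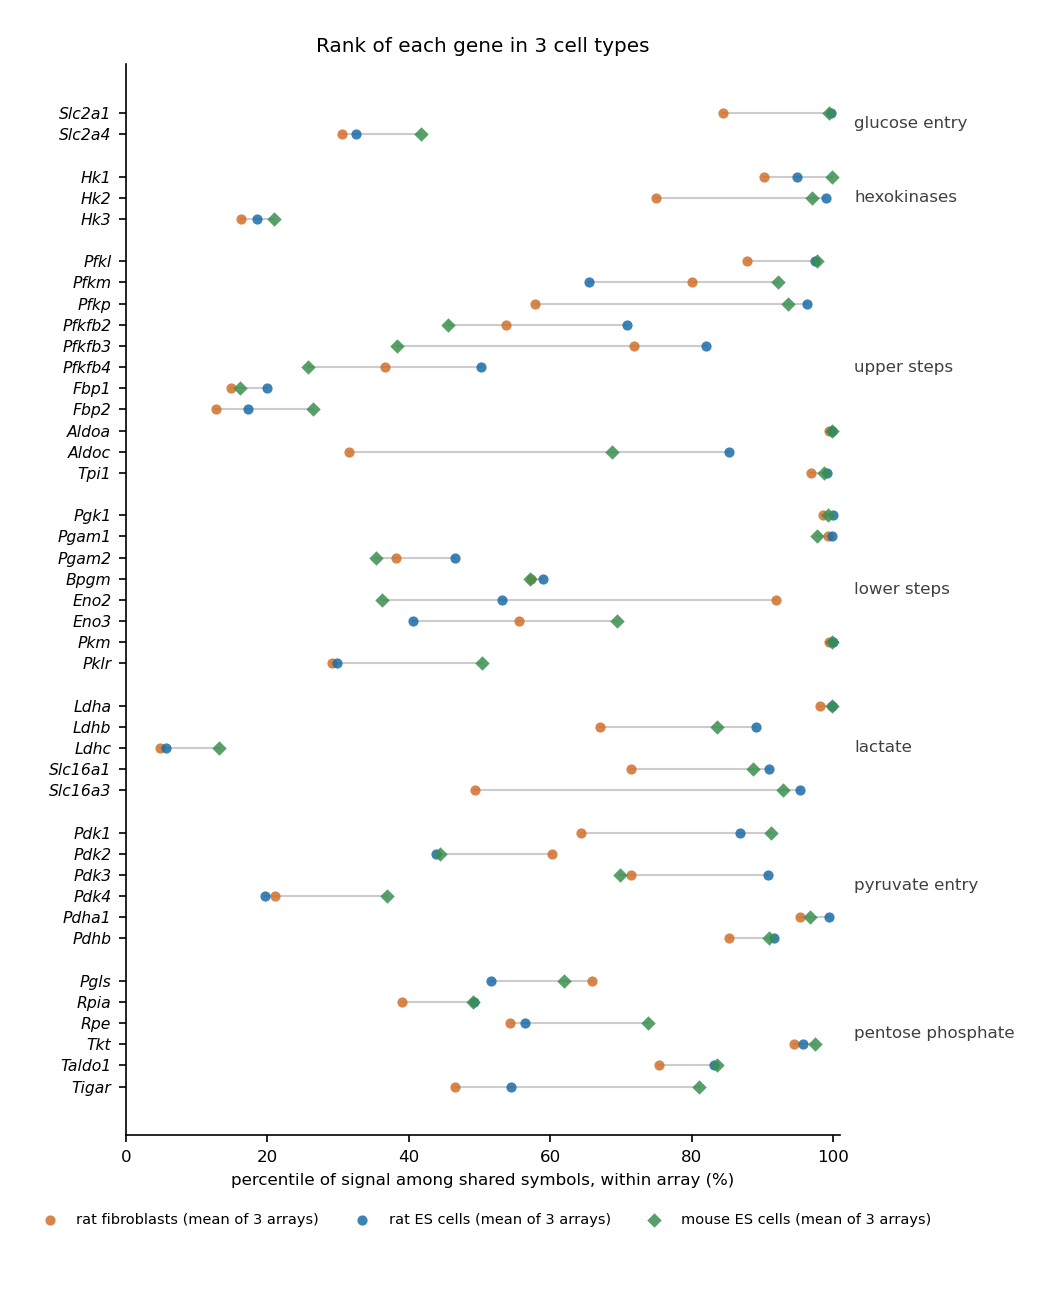
Mean percentile of signal within the array among 12114 shared symbols (horizontal axis, %) for 41 genes in rat fibroblasts, rat ES cells and mouse ES cells, each the mean of 3 arrays and grouped by role. Slc2a1, Hk2, Pfkp and Slc16a3 lie close together in both kinds of ES cell and apart from fibroblasts. Pfkfb3 has the widest gap between the 2 kinds of ES cell and is lower in mouse ES cells.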

How the data were processed

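Biotin-labelled single-stranded DNA made from total RNA was the target on 1-colour arrays, per the labels' protocols. For each probe set the authors deposited a log2 value on 6 rat and 3 mouse arrays. The log2 scale was read from the range of the values, and how background was corrected and arrays were normalized is not given in the sources used here. Probe sets were named through the platform annotation, those without a single symbol were dropped, and the probe set with the highest mean was kept for each symbol. Rat ES cells were set against fibroblasts in limma 3.58.1 (R 4.3.3) by lmFit and eBayes with group as the sole term, adjusted by Benjamini-Hochberg over all 14506 genes, and no further normalization or filter was applied. The fit was tested on simulated data. The listed genes, the wider list, the pairs, the markers and the motifs were chosen with earlier results of these data known. All measured listed genes are described, and genes of the wider list where they were called at least 4-fold or are regulators or splicing factors. Precision is limited by how few arrays there are. Alternatives were other normalizations, filters, probe set rules, moderation, thresholds, a block for the replicate number, and each array left out in turn.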

Additional observations from a re-analysis of the deposited data

How the results depend on the processing

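Of the 45 genes, 29 kept their direction and call under all 14 alternatives other than thresholds, and 7 more under those that tested them, a filter on level having left them out of 1 or 2. The other 9 were Aldoa, Eno1, Eno3, Pdk2, Pfkfb2 and Pgam1, near 2-fold, and Hk3, Ldhc and Pklr, uncalled and near 0. Pgam1 was at 0.79 with the mean of its probe sets. Pklr changed sign after quantile normalization (0.03), after median centring (0.04) and without rat ES array 2 (0.06), rat ES array 3 (0.00) or fibroblast array 3 (0.04). Its range on leaving out arrays was -0.13 to 0.06, that of Ldhc -0.13 to 0.17 and that of Hk3 -0.02 to 0.16. Listed genes called lower numbered 1 after median centring, and 1 to 3 on leaving out arrays. Pairs with a switch of calls numbered 1 after quantile normalization, 1 after median centring, and 1 to 2 on leaving out arrays. The cause was not tested. With no fold threshold, 8172 genes were called (4478 higher, 3694 lower), 37 of them listed (32 higher, 5 lower) and 39 of the wider list (26 higher, 13 lower). At 4-fold these were 995 (378, 617), 7 (6, 1) and 10 (5 higher). Above the median of mean level, 3 genes of the wider list were called lower, since fewer were tested. Deviations of same-numbered arrays correlated at -0.00044, 0.031 and -0.000296, so no shared deviation was seen. Whether same-numbered arrays were handled together cannot be told from these values. With the replicate number as a block, 23 listed genes were called, 20 higher and 3 lower, and no call of a listed gene changed. The median mouse percentile was 85.9 among all named genes, 79.1 when genes of low level (under the 25th percentile of either table) were left out, and 97 over the 11 genes with 3 different mouse values. What low signal hides was not tested, as no detection call was used.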
